A study of Homo sapiens with 48 samples.

Results

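The response to carfilzomib was compared between 2 human pancreatic cancer cell lines, CAPAN-2 and PANC-1, gene by gene. Members were chosen by sample: the 12 libraries of these lines, of 48 libraries in all, and every gene that passed the filter on low counts, 18455 genes. The quantity of interest is the response difference, the log2 fold change of carfilzomib against DMSO in CAPAN-2 minus that in PANC-1. A positive response difference means that the CAPAN-2 value was the higher of the pair.

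The study measured RNA in 8 cancer cell lines after proteasome inhibition, and its title names HSP70 as the driver of the response. CAPAN-2 and PANC-1 are established lines labelled as pancreatic cancer, grown as flat cultures by the supplier's standard protocols. Each line was given carfilzomib, or the solvent DMSO, for 24 h, in 3 biological replicates, so there were 4 groups of 3 libraries: CAPAN-2 DMSO, CAPAN-2 carfilzomib, PANC-1 DMSO and PANC-1 carfilzomib. The dose was set for each line at its IC50 of proteasome activity, and the concentrations themselves are not analysed here. A difference between the lines and a difference in the concentration they received cannot be told apart. Each line is a single culture lineage without stroma, and stands for itself and not for a tumour type.

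Carfilzomib binds irreversibly to the active sites of the proteasome, the complex that degrades proteins tagged with ubiquitin. Cells short of proteasome activity are known to make more proteasome subunits, through the transcription factor NFE2L1, and more heat shock proteins, through HSF1. Misfolded proteins in the endoplasmic reticulum (ER) start the unfolded protein response, whose targets are ER chaperones and folding enzymes. Proteins that drive the cell cycle are themselves proteasome substrates. Pancreatic carcinoma cells range from epithelial to mesenchymal forms, and the chosen lines sit at different places in that range.

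Library totals ran from 25600054 to 45865683 counts in CAPAN-2 and from 27901521 to 35088218 in PANC-1. Levels are given in CPM, the usual unit of counts relative to library size, here scaled by edgeR's TMM factors, and the 3 values of a group are in the order of replicates 1, 2 and 3. All 10 ductal and carcinoma epithelial markers were at 1 CPM or more in both lines, and their summed level in DMSO was 15400 to 16500 CPM in CAPAN-2 and 5750 to 5810 CPM in PANC-1. Summed mesenchymal markers (VIM, ZEB1, CDH2, FN1) were at 144 to 164 CPM in CAPAN-2 DMSO and at 2480 to 2710 CPM in PANC-1 DMSO. The markers differed among themselves: in DMSO, mean VIM was 12.3 CPM in CAPAN-2 and 2424 CPM in PANC-1, most of the PANC-1 sum, whereas FN1 was higher in CAPAN-2 (121 CPM) than in PANC-1 (7.88 CPM). Acinar and endocrine markers did not exceed 0.0651 CPM in sum in any library. Of 4 immune markers, CD68 alone reached 1 CPM, and it also marks lysosomes: the sum of the list went from 23.7 to 24.3 CPM up to 44.7 to 52.5 CPM in CAPAN-2 and from 39.6 to 44.9 CPM up to 93.4 to 102 CPM in PANC-1, while the part of this in any result was not tested.

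Carfilzomib changed more genes, by larger amounts, in CAPAN-2 than it did in PANC-1. In CAPAN-2, 4843 genes rose (26.2% of those tested) and 4761 fell (25.8%), and in PANC-1, 2624 rose (14.2%) and 2442 fell (13.2%), by edgeR's quasi-likelihood test at a Benjamini-Hochberg adjusted p under 0.05. The median absolute log2 change over all genes was 0.35 in CAPAN-2 and 0.20 in PANC-1. Changes of at least 2-fold numbered 874 up and 1072 down in CAPAN-2 and 269 up and 141 down in PANC-1. The response difference was called for 7044 genes (38.2%), positive for 3737 (20.2%) and negative for 3307 (17.9%), and it was at least 2-fold for 556 positive and 910 negative calls. The share of positive calls, 53.1%, varied with the scaling: it was 50.1% with DESeq2's size factors and 47.3% with library totals. In a fit restricted to genes at 5 CPM or more in each line, and scaled anew, it was 47.9%. The same genes in the main fit had 3174 positive and 2321 negative calls. Tested against a 1.5-fold difference, the share was 42.4%. In bulk RNA, fewer cells in a phase or state and less RNA per cell cannot be told apart.

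Shared responses outnumbered opposite ones. A gene was counted as shared when it was called in both lines in the same direction: 1526 genes rose in both (8.27%) and 1261 fell in both (6.83%). Opposite calls were made for 793 genes, of which 385 (2.09%) rose in CAPAN-2 and fell in PANC-1 and 408 (2.21%) did the reverse. The former count was 249 without PANC-1 DMSO replicate 3. The response difference was called for all 793 opposite genes, nearly fixed in advance because the difference adds the sizes of 2 called changes. It was also called for many shared genes: of the 1526 that rose in both lines, 749 rose more in CAPAN-2, 72 rose more in PANC-1 and 705 had no called difference. Of the 1261 that fell in both, 445 fell more in CAPAN-2, 60 fell more in PANC-1 and 756 had no called difference. A further 3829 genes were called in CAPAN-2 only, with a called difference, and 837 in PANC-1 only. Across the 9980 genes at 5 CPM or more in each line, the log2 changes of the lines had a Pearson r of 0.45 and a Spearman rho of 0.41, where the points are genes of the same 12 libraries and not independent replicates. Over all 18455 genes tested, the Pearson r was 0.18 and the Spearman rho 0.25.

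**Figure D1:**
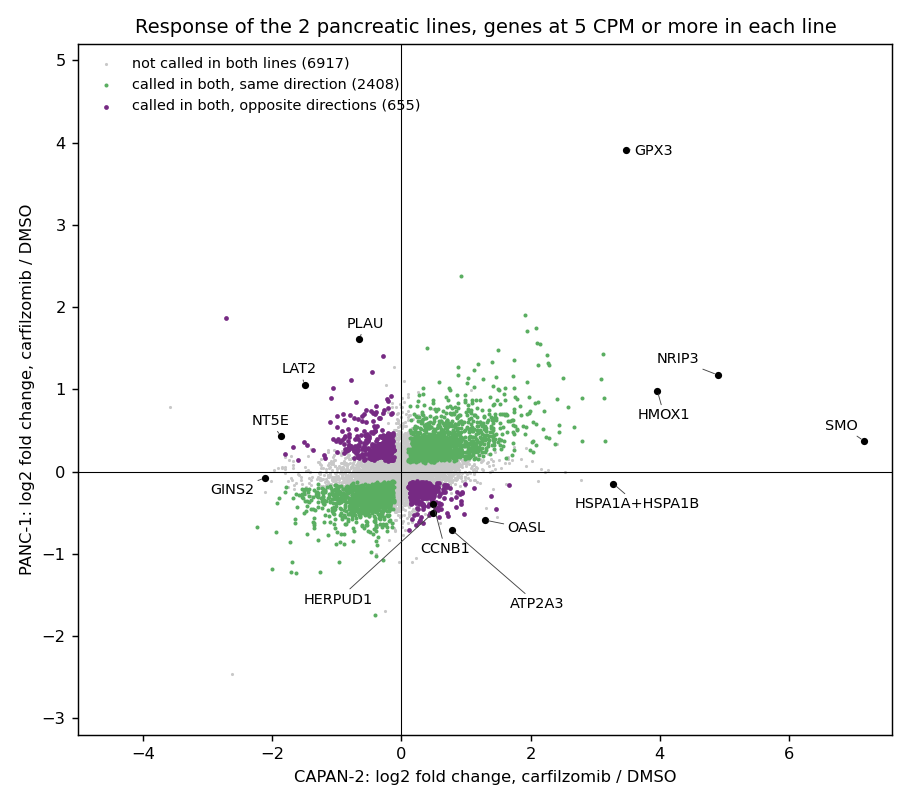
Log2 fold change of carfilzomib against DMSO in CAPAN-2 (horizontal axis) and PANC-1 (vertical axis) for genes at a mean of 5 CPM or more in each line; 1 gene lies outside the axes. Each point is a gene, green where called in both lines in the same direction (2408), purple where called in opposite directions (655) and grey otherwise (6917), and black points are named genes.

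Shared rises were ranked by the smaller of a gene's line changes, and GPX3, HSPB8, UCHL1, HSPA6, DGKG and EIF4E3 came first. GPX3 (ENSG00000211445), an extracellular glutathione peroxidase, was at 4.21, 3.77 and 4.85 CPM in CAPAN-2 DMSO and at 47.5, 49 and 48 CPM after carfilzomib. In PANC-1 it was at 2.83, 2.63 and 2.6 and then 42.8, 37.3 and 41.5 CPM. Neither pair of groups overlapped, and the rise was 3.48 ± 0.083 in CAPAN-2 and 3.92 ± 0.092 in PANC-1 (log2 ± SE, n = 3 per group). Here and below, SE is the absolute log2 value divided by the square root of edgeR's F statistic. It is approximate, above all at low counts, and is not the spread of the replicates. HSPB8 (ENSG00000152137), a small heat shock protein that works with BAG3, went from 0.702, 1.04 and 0.699 to 12.8, 13.5 and 12.1 CPM in CAPAN-2 and from 0.559, 0.788 and 0.671 to 5.3, 5.71 and 6.28 CPM in PANC-1, again without overlap. UCHL1, a deubiquitinating enzyme, rose by 4.20 and 2.65 on the log2 scale in CAPAN-2 and PANC-1, DGKG, a diacylglycerol kinase, by 4.59 and 2.41, and EIF4E3, a cap-binding protein, by 2.14 and 2.61. The response difference of UCHL1 was not called without PANC-1 DMSO replicate 3 (1.07, edgeR adjusted p = 0.16). DGKG had 5 to 7 counts per library in PANC-1 DMSO, so the size of its rise there is uncertain.

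The leading shared falls, ranked in the same way, were smaller than the leading shared rises. BMF (ENSG00000104081), a pro-apoptotic member of the BCL2 family, was at 5.41, 6.47 and 6.6 CPM in CAPAN-2 DMSO and at 2.23, 2.26 and 2.28 after carfilzomib. Its PANC-1 values were 5.59, 5.72 and 6.42 and 2.25, 2.26 and 2.02 CPM, so both lines ended at about the same level with no overlap between treatments. The fall was -1.45 in CAPAN-2 and -1.44 in PANC-1, and the response difference was -0.01 ± 0.21 (edgeR adjusted p = 0.996). MXRA5, a matrix protein, had log2 changes of -1.32 and -1.27, SCNN1G, a subunit of the epithelial sodium channel, -1.49 and -1.49, SERPINA3, a serine protease inhibitor, -1.61 and -1.27, and DSCAML1, a cell adhesion molecule, -2.38 and -1.44, in CAPAN-2 and PANC-1 in that order. ART5 was also called in both, from at most 0.163 CPM to 0 in CAPAN-2 and from 15.3, 20.4 and 19.1 to 3.95, 4.28 and 4.38 CPM in PANC-1.

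The 25 gene lists differed in how their medians stood in the 2 lines. List values are counts of called members and medians over members with a single row in the file, set beside the background of all genes, whose median log2 change was -0.01 in each line. Counts of members are read against all genes, of which 26.2% rose and 25.8% fell in CAPAN-2, 14.2% rose and 13.2% fell in PANC-1, and 20.2% had a positive and 17.9% a negative response difference. Proteasome, NRF2 and chaperone lists had positive medians in both lines, with the larger in CAPAN-2. S-phase, histone and sterol synthesis lists had low medians in CAPAN-2 and medians nearer 0 in PANC-1. Opposite signs were seen for the unfolded protein response (0.35 in CAPAN-2 and -0.23 in PANC-1) and ribosome biogenesis genes (-0.18 and 0.09). The medians of p53 targets (-0.07 and 0.03) also differed in sign, but both were near that of all genes. Of these targets, 0 were called in opposite directions, and 4 had a positive and 4 a negative response difference. Integrated stress response (-0.22 and -0.53) and G2 and mitosis genes (-0.07 and -0.37) had the lower median in PANC-1. Ubiquitin, VCP and ZFAND genes (0.73 and 0.12) and interferon and antigen presentation genes (0.76 and 0.07) had the higher median in CAPAN-2. Some other lists had like medians in both lines, among them immediate early (0.24 and 0.31), NF-kB (0.26 and 0.28) and mesenchymal genes (-0.17 and -0.18).

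**Figure D2:**
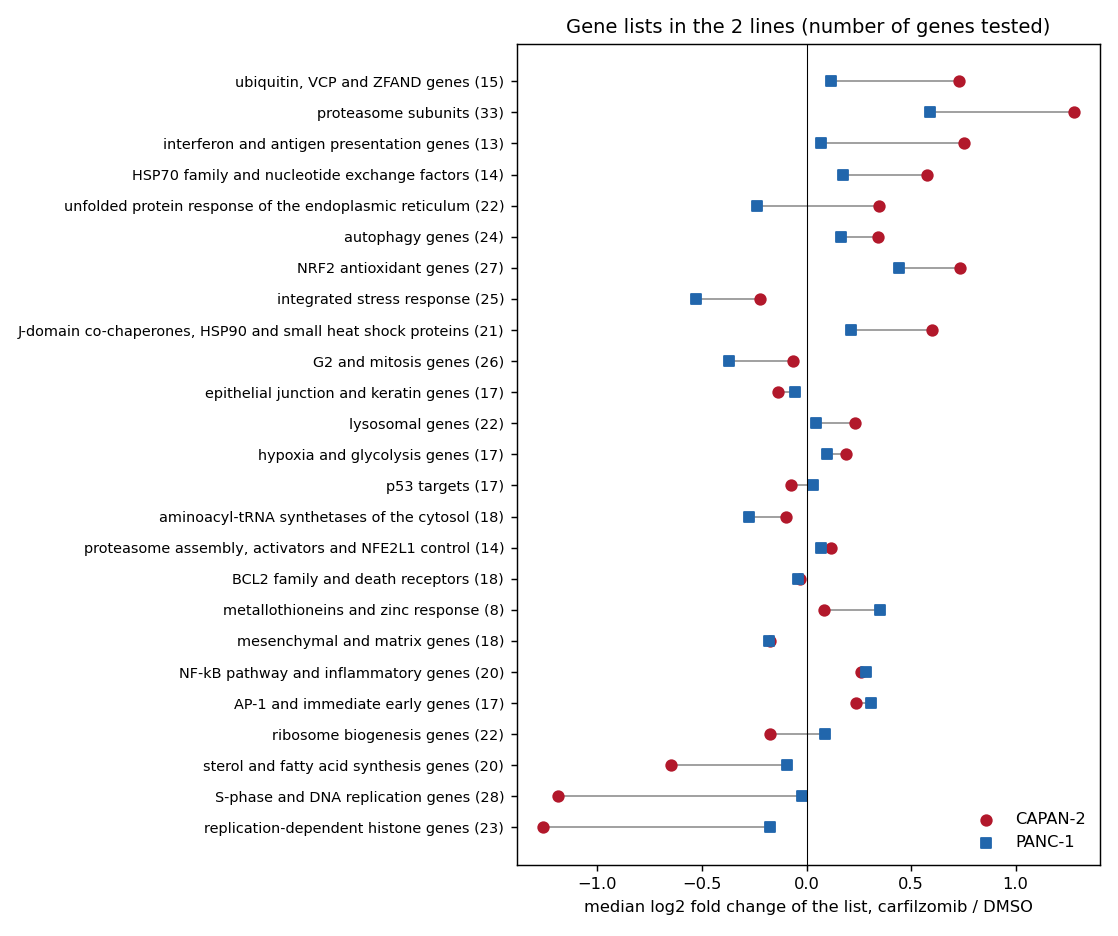
Median log2 fold change of each gene list in CAPAN-2 (red circles) and PANC-1 (blue squares), with the number of genes tested in parentheses, ordered by the median response difference. The widest gaps are those of the S-phase list (-1.19 and -0.02) and the histone list (-1.26 and -0.18), and the unfolded protein response list has its medians on either side of 0.

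Proteasome subunit genes rose in both lines, and most of them rose more in CAPAN-2. Of the 35 subunit genes listed, PSMB3 and PSMC4 have several rows in the file and were left out. All 33 others rose in CAPAN-2 and 31 of 33 in PANC-1, where 26.2% and 14.2% of all genes rose. Median log2 changes were 1.28 and 0.59. The response difference was positive for 29 of 33 subunits and negative for 0, against 20.2% and 17.9% of all genes. PSMB5 (ENSG00000100804) encodes the catalytic beta subunit that carfilzomib binds. It was at 128, 135 and 114 CPM in CAPAN-2 DMSO and at 294, 300.5 and 311 CPM after carfilzomib, and at 84.8, 88.3 and 91.9 and then 101, 101 and 101 CPM in PANC-1. The groups did not overlap in either line, but the rise was 1.27 ± 0.054 in CAPAN-2 and 0.19 ± 0.056 in PANC-1, a response difference of 1.07 ± 0.078 (edgeR adjusted p = 1.44e-08), the largest of the subunits. The other catalytic subunits, PSMB6 and PSMB7, rose by 1.12 and 1.03 and by 1.59 and 0.70. PSMB6 and PSMB1, a non-catalytic subunit of the same ring (0.60 and 0.42), had no called difference. PSMD9 and PSMD10, listed by their subunit names though they assist assembly of the base, were at 0.20 and 0.05 in PANC-1. They were the only 2 of the 33 listed genes not called there. PSMD2, a scaffold of the regulatory particle, rose by 1.60 and 0.87.

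Genes around the proteasome moved less evenly. POMP, the assembly chaperone of the core particle, rose by 1.36 in CAPAN-2 and 0.75 in PANC-1, and the activator PSME4 by 1.40 and 0.65. USP14, a deubiquitinase of the regulatory particle, went from 20.01, 21.1 and 20.3 to 37.3, 37.1 and 34.8 CPM in CAPAN-2, while its PANC-1 groups overlapped, at 33.5, 42.6 and 39.1 and 43.8, 37.3 and 36.3 CPM, and the response difference was 0.81. NFE2L1, the transcription factor of the proteasome recovery response, was at 264, 279.5 and 284 and 308, 303 and 298 CPM in CAPAN-2 and at 547, 533 and 543 and 441, 447 and 417 CPM in PANC-1. Its transcript was thus called higher in CAPAN-2 (0.13) and lower in PANC-1 (-0.31), while the subunit genes rose in both. PSMG3, an assembly chaperone, had the reverse signs, -0.33 and 0.26, and a response difference of -0.59.

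Of 15 genes for ubiquitin, the unfoldase VCP with its cofactors, and ZFAND proteins, 13 rose in CAPAN-2 and 6 in PANC-1, with medians of 0.73 and 0.12. The response difference was positive for 11 and negative for 0. ZFAND2A (ENSG00000178381), a heat-inducible adaptor of the proteasome, was at 17.4, 18.3 and 15.7 CPM in CAPAN-2 DMSO and 99.9, 88.1 and 89.8 CPM after carfilzomib, and at 11.9, 12.5 and 11.3 and 17.9, 17.2 and 17.6 CPM in PANC-1. Its response difference was 1.87 ± 0.099. VCP itself rose by 1.23 in CAPAN-2 and was at 0.12 in PANC-1, without a call. UBB, a polyubiquitin gene, was called higher in CAPAN-2 (0.62) and lower in PANC-1 (-0.40).

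The inducible HSP70 genes separated the lines. HSPA1A and HSPA1B, near-identical neighbours whose counts were summed, encode the main stress-inducible HSP70. Their sum was 4.37, 1.76 and 3.06 CPM in CAPAN-2 DMSO and 44, 22.6 and 23.5 CPM after carfilzomib. In PANC-1 it was 12.7, 3.29 and 5.13 CPM in DMSO and 7.36, 6.51 and 5.06 CPM after carfilzomib. The CAPAN-2 groups did not overlap and the PANC-1 groups did. The log2 change in CAPAN-2 was 3.28 ± 0.39 (edgeR adjusted p = 1.36e-06). PANC-1 had a change of -0.15 ± 0.38, which was not called by edgeR (adjusted p = 0.828), and the response difference was 3.42 ± 0.54 (adjusted p = 7.72e-05). Without PANC-1 DMSO replicate 1, the highest of its group, the PANC-1 value was 0.58 (edgeR adjusted p = 0.248).

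HSPA6 (ENSG00000173110), an HSP70 gene that is nearly silent in unstressed cells, rose in both lines to different levels. It went from 0.884, 0.878 and 0.743 to 67.7, 47.1 and 49.6 CPM in CAPAN-2, a log2 change of 6.04 ± 0.16. In PANC-1 it went from 0.663, 0.723 and 0.963 to 4.82, 4.17 and 4.38 CPM, a log2 change of 2.48 ± 0.20. DMSO levels of the lines overlapped, carfilzomib levels did not, and the response difference was 3.56 ± 0.31 (edgeR adjusted p = 9.5e-08). The promoters of these genes are shown because they hold the binding sequence of HSF1, the heat shock element, searched for as GAANNTTC or TTCNNGAA on both strands in the 250 bases before the gene start. Capitals mark the matches. Sequences and positions are RefSeq's on GRCh38.p14, HSPA1A at chr6:31815293-31815542 (plus strand) and HSPA6 at chr1:161524290-161524539 (plus strand), 5′ to 3′ toward the start.
HSPA1A: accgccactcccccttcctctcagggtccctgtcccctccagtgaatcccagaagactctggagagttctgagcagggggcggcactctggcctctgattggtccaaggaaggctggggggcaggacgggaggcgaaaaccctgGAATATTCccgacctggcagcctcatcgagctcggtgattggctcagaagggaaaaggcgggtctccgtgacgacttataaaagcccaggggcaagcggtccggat
HSPA6: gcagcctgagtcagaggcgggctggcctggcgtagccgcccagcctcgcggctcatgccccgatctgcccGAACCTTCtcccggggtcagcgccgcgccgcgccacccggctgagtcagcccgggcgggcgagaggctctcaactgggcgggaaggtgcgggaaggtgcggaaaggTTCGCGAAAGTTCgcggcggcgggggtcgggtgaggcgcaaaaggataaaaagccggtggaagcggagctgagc
In HSPA6, 2 of the 3 matches overlap and are read as a single run of capitals. Such a match was present in 5 of the 15 promoters found for the HSP70 list, in 7 of 20 for the J-domain, HSP90 and small heat shock protein list, and in 11.7% of all 27305 promoters in the table.

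**Figure D3:**
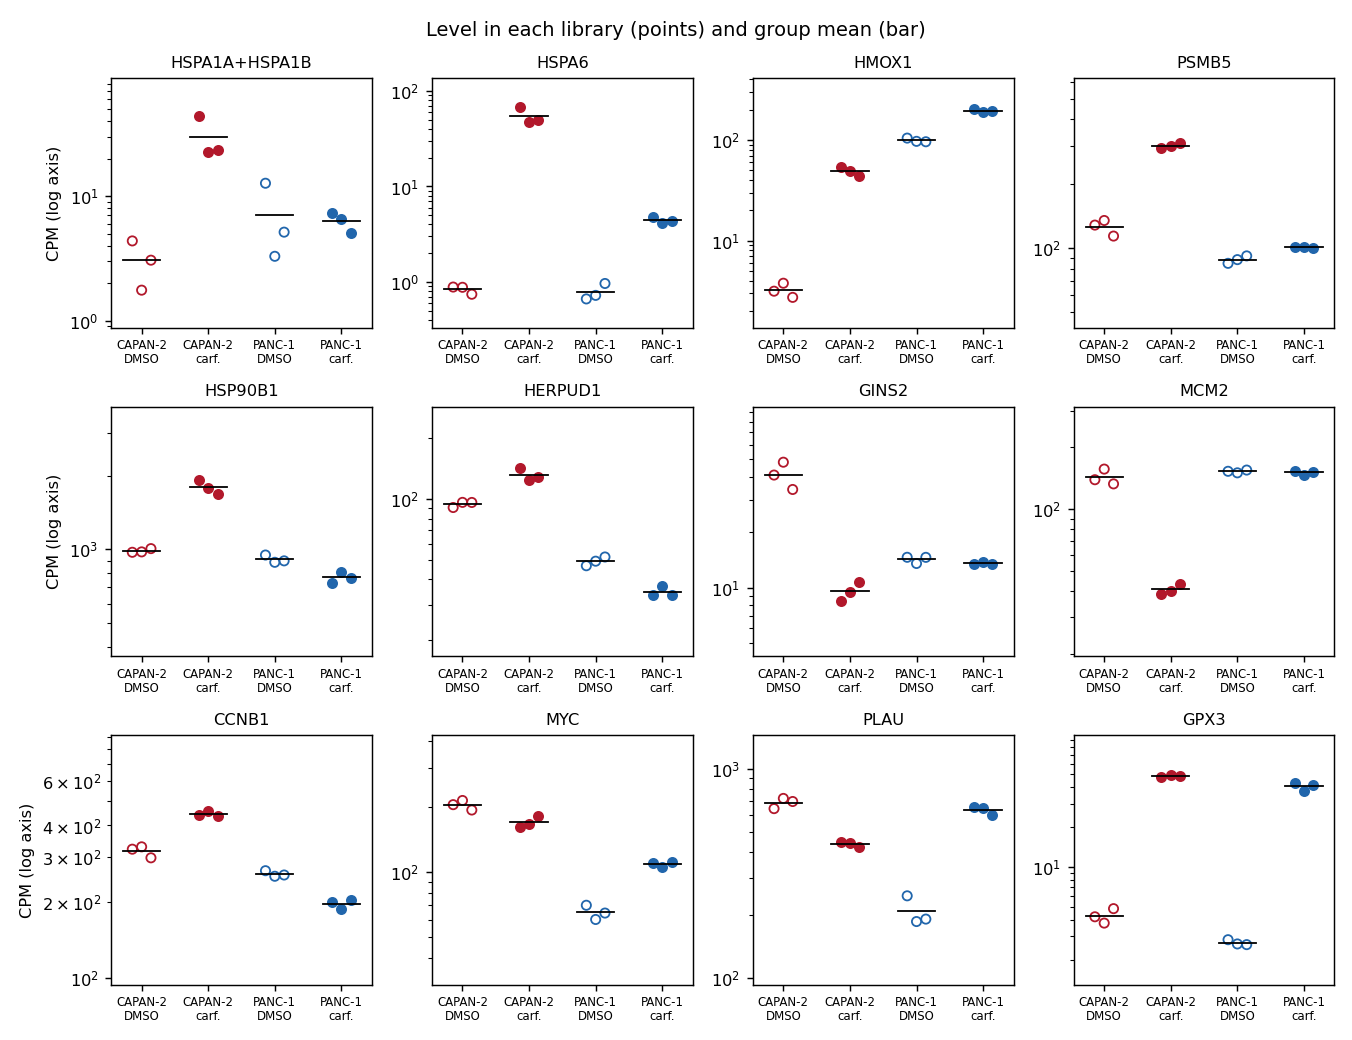
Level of 12 genes in each library (points, CPM on a log axis) and the group mean (bar), with DMSO as open and carfilzomib as filled points, CAPAN-2 in red and PANC-1 in blue. HSPA1A+HSPA1B, GINS2 and MCM2 separate by treatment in CAPAN-2 only, HSP90B1, HERPUD1 and CCNB1 move in opposite directions, and GPX3 rises in both lines.

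Constitutive members went with the lines as well. HSPA8 (ENSG00000109971), the abundant housekeeping HSP70, was at 2007, 2140 and 1855 CPM in CAPAN-2 DMSO and 2938, 2631 and 2479 CPM after carfilzomib, and at 2065, 1988 and 2050 and 1464, 1569 and 1605 CPM in PANC-1. It thus rose by 0.42 in CAPAN-2 and fell by 0.40 in PANC-1 on the log2 scale, and the groups did not overlap in either line. HSPA13, an ER-associated HSP70, did the same, with 0.92 and -0.36. HSPA9, the mitochondrial HSP70, rose by 0.69 in CAPAN-2 and was at -0.10 in PANC-1, and the mitochondrial chaperonin HSPD1 had 0.61 and -0.01. BAG3, the nucleotide exchange factor that links HSP70 to autophagy, rose in both, by 1.71 and 0.63, with a response difference of 1.08. Over the list, 13 of 14 genes rose and 1 fell in CAPAN-2, 7 rose and 2 fell in PANC-1, and the response difference was positive for 10 and negative for 0.

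Among J-domain co-chaperones, HSP90 and small heat shock proteins, 17 of 21 rose and 1 fell in CAPAN-2, and 11 rose and 1 fell in PANC-1. DNAJB1, the main cytosolic partner of HSP70, rose by 0.56 and 0.28, a response difference of 0.28. HSP90AA1, the inducible HSP90, rose by 0.91 in CAPAN-2 and was at 0.17 in PANC-1. The direction was reversed for 2 members: FKBP4, an HSP90 co-chaperone, was at 191, 206 and 174 and 202, 194 and 197 CPM in CAPAN-2 and went from 106, 105 and 105 to 143, 146 and 149.7 CPM in PANC-1, and HSPB1 rose by 0.15 and 0.49. Their response differences were -0.42 and -0.34. HSPB8, shared above, still differed by 0.90 ± 0.26, but this was not called in a fit of all 48 libraries (edgeR adjusted p = 0.0578).

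ER chaperone and folding genes rose in CAPAN-2 and fell in PANC-1. Of 22 genes of the unfolded protein response, 17 rose and 2 fell in CAPAN-2, while 0 rose and 14 fell in PANC-1. Of these, 10 were called in opposite directions, against 2.09% of all genes with CAPAN-2 as the higher line. The lines' response difference was positive for 19 genes and negative for 1, and the medians were 0.35 in CAPAN-2 and -0.23 in PANC-1. HSP90B1 (ENSG00000166598), the HSP90 of the ER, was at 973, 976 and 1007 CPM in CAPAN-2 DMSO and 1915, 1788 and 1689 CPM after carfilzomib, and at 948, 885 and 897 and then 731, 808 and 764 CPM in PANC-1. All 3 carfilzomib libraries lay above DMSO in CAPAN-2 and below it in PANC-1, for a response difference of 1.11 ± 0.071 (edgeR adjusted p = 3.86e-09).

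HSPA5 (ENSG00000044574), also called BiP, the HSP70 of the ER, was at 505, 458 and 535 CPM and then 994, 793 and 888 CPM in CAPAN-2. In PANC-1 it was at 350.3, 352 and 359 and 304, 321 and 330.5 CPM. The CAPAN-2 rise was 0.84 ± 0.069. The PANC-1 value, -0.15 ± 0.069, was not called (edgeR adjusted p = 0.119), and the response difference was 0.99 ± 0.097 (adjusted p = 4.41e-07). HERPUD1, part of ER-associated degradation, went from 90.9, 96.4 and 96.3 to 143, 125 and 129 CPM in CAPAN-2 and from 46.8, 49.2 and 51.7 to 33.3, 37.3 and 33.5 CPM in PANC-1, without overlap. Other genes called in opposite directions were CRELD2 (0.43 and -0.53), the disulfide isomerase PDIA4 (0.54 and -0.37), the lectin chaperone CALR (0.24 and -0.52), DNAJB11, DNAJC3, SEL1L, DERL1 and SELENOS. Exceptions were XBP1 and MANF, which fell in both lines (-0.33 and -0.64, and -0.18 and -0.59), and EDEM1, the single gene with a negative response difference (-0.18), which lost its call without any 1 of CAPAN-2 DMSO 1, CAPAN-2 carfilzomib 1 or 2, PANC-1 DMSO 1, 2 or 3, or PANC-1 carfilzomib 1 or 2 (-0.19 to -0.15).

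The promoters of HSPA5 and HSP90B1 are shown because they hold the ER stress element bound by ATF6, searched for as CCAAT, 9 bases of any kind and CCACG on both strands in the same window and marked in capitals. HSPA5 lies at chr9:125241344-125241593 (minus strand) and HSP90B1 at chr12:103930160-103930409 (plus strand) of GRCh38.p14, from RefSeq.
HSPA5: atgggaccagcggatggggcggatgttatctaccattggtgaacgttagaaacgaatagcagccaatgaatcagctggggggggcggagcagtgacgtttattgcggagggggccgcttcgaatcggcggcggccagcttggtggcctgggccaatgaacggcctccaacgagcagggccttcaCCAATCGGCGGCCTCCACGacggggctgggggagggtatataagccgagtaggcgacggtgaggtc
HSP90B1: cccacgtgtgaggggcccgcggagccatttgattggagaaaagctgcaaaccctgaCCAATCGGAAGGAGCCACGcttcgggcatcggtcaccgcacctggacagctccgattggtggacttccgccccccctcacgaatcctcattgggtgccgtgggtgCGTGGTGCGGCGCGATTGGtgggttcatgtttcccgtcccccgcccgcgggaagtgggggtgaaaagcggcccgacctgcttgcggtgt
This sequence was found in 5 of the 21 promoters matched for the list, those of CALR, CRELD2, HSP90B1, HSPA5 and XBP1, and in 22 of all 27305 (0.0806%). XBP1 fell in both lines with the same element in its promoter window.

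Genes of the integrated stress response, the ATF4 programme for amino acid supply and redox balance, had negative medians in both lines, -0.22 in CAPAN-2 and -0.53 in PANC-1. In CAPAN-2, 8 of 25 rose and 12 fell, where 26.2% and 25.8% of all genes did, and in PANC-1, 2 rose and 17 fell, where 14.2% and 13.2% did. As a difference between lines, the response was positive for 13 and negative for 1. ATF4 itself was called higher in CAPAN-2 (0.20) and lower in PANC-1 (-0.52), as were the cystine transporter SLC7A11 (0.30 and -0.56) and ATF5 (0.22 and -0.65). ATF3, a stress-induced partner of this programme, was at 22.6, 23.1 and 22.7 CPM and then 61.8, 59.9 and 60.8 CPM in CAPAN-2, with no overlap. In PANC-1 its groups overlapped, at 11.1, 10.5 and 10.7 and 10.9, 11.5 and 11.8 CPM, and the response difference was 1.33 ± 0.081 (edgeR adjusted p = 2.16e-09). DDIT3, or CHOP, rose in both, by 0.85 and 0.28, with a difference of 0.57. Serine synthesis genes fell together, PHGDH by 0.95 and 0.85 and PSAT1 by 0.73 and 0.72. SHMT2, which uses serine, fell more in CAPAN-2 (difference -0.41). Of 18 aminoacyl-tRNA synthetases, 9 fell and 4 rose in CAPAN-2 and 11 fell and 3 rose in PANC-1, with 9 that fell and 2 that rose in both. WARS1 rose in CAPAN-2 (0.74, difference 0.69).

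Replication genes fell in CAPAN-2 and hardly moved in PANC-1. Of 28 S-phase genes, 27 fell and 0 rose in CAPAN-2, against 25.8% of all genes that fell there, and 6 fell and 3 rose in PANC-1, where 13.2% of all genes fell. Medians were -1.19 and -0.02, and the response difference was negative for 27 of 28. GINS2 (ENSG00000131153), a subunit of the replicative helicase, was at 41, 48.2 and 34.2 CPM in CAPAN-2 DMSO and 8.48, 9.47 and 10.7 CPM after carfilzomib. In PANC-1 it was at 14.6, 13.5 and 14.6 and 13.5, 13.8 and 13.4 CPM, where the groups overlapped. Between the lines, the response difference was -2.04 ± 0.15 (edgeR adjusted p = 2.34e-08), the most negative of the list. MCM2, the first subunit of the helicase ring, went from 139, 156 and 133 to 38.9, 40.4 and 43.4 CPM in CAPAN-2 and was at 153, 150.1 and 155 and 154, 147 and 152 CPM in PANC-1. The 6 MCM genes fell by 1.43 to 1.80 on the log2 scale in CAPAN-2. In PANC-1, MCM7 fell (-0.30), MCM6 rose (0.15) and the other 4 were not called.

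Regulators of the same programme followed. E2F1, the transcription factor of S-phase entry, had log2 changes of -1.90 and 0.05, and cyclin E2 (CCNE2) -1.85 and 0.05. UHRF1, which maintains DNA methylation at replication forks, was called in opposite directions: it went from 97.4, 107 and 89.2 to 26.3, 31.6 and 33.9 CPM in CAPAN-2 and from 54.9, 52.5 and 49.98 to 66.5, 61.2 and 66.3 CPM in PANC-1. Its response difference was -1.99 ± 0.11. RRM1 was the exception in CAPAN-2, at 0.01, while its partner in ribonucleotide reductase, RRM2, fell in both lines, by 0.98 and 0.37. The GINS2 promoter is shown for its match to the E2F site, searched for as TTTCGCGC, TTTGGCGC or TTTCCCGC on both strands and marked in capitals, where the reverse strand gives the last of these. It lies at chr16:85688955-85689204 (minus strand) of GRCh38.p14, from RefSeq.
GINS2: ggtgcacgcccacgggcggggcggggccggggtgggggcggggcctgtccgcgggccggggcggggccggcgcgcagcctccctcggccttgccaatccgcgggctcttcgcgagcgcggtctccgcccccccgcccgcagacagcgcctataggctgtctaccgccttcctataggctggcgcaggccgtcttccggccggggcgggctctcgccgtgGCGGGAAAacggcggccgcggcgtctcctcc
An E2F site by these letters was found in 13 of 25 promoters of the S-phase list, 2 of 20 of the G2 and mitosis list and 2.38% of all. The cell cycle homology region of late genes (TTTGAA or TTCGAA) was found in 2 of 25, 11 of 20 and 14.6%. Overlaps between different motifs were not removed.

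Replication-dependent histone genes, whose transcripts accumulate in S phase and largely lack a poly(A) tail, had the same pattern. In CAPAN-2, 21 of 23 fell and 0 rose, and in PANC-1, 6 fell and 0 rose, with medians of -1.26 and -0.18. Their summed share of all counts was 0.159% to 0.194% in CAPAN-2 DMSO and 0.0704% to 0.077% after carfilzomib, and 0.199% to 0.206% and 0.177% to 0.19% in PANC-1. H2BC14 had the most negative difference with counts in every group, -1.68 ± 0.20, from 6.18, 6.9 and 4.65 to 1.19, 2.14 and 1.91 CPM in CAPAN-2, against 48.1, 45.5 and 48.6 and 43.3, 45.3 and 44.8 CPM in PANC-1. Several members have near-identical copies, so single histone genes are uncertain.

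Genes of G2 and mitosis fell in PANC-1, where 25 of 26 fell and 0 rose, against 13.2% and 14.2% of all genes, by small amounts, with a median of -0.37. In CAPAN-2, 7 rose and 8 fell, with a median of -0.07, which is near the shares of all genes there, 26.2% and 25.8%. All 7 that rose in CAPAN-2 fell in PANC-1, and the response difference was positive for 20 and negative for 2. CCNB1 (ENSG00000134057), cyclin B1, which drives entry into mitosis, was at 322, 329 and 298 CPM in CAPAN-2 DMSO and 442, 455 and 436 CPM after carfilzomib. In PANC-1 it was at 265, 252 and 255 and 199, 188 and 203 CPM. The groups did not overlap in either line and moved in opposite directions, by 0.49 ± 0.047 and -0.39 ± 0.047, for a response difference of 0.88 ± 0.067 (edgeR adjusted p = 2.39e-08). The mitotic kinase AURKA (0.50 and -0.23), CDC20, the activator of the anaphase-promoting complex (0.41 and -0.21), PLK1, KIF20A, CENPE and HMMR did the same. AURKB and FOXM1 were the 2 with a negative difference. AURKB fell in both lines, by 0.70 and 0.38 (difference -0.32), and MKI67, a proliferation marker, fell by 0.53 and 0.42. Relative to DMSO, 27 of 28 S-phase genes were thus lower in CAPAN-2 than in PANC-1, and 20 of 26 G2 and mitosis genes were higher.

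**Figure D4:**
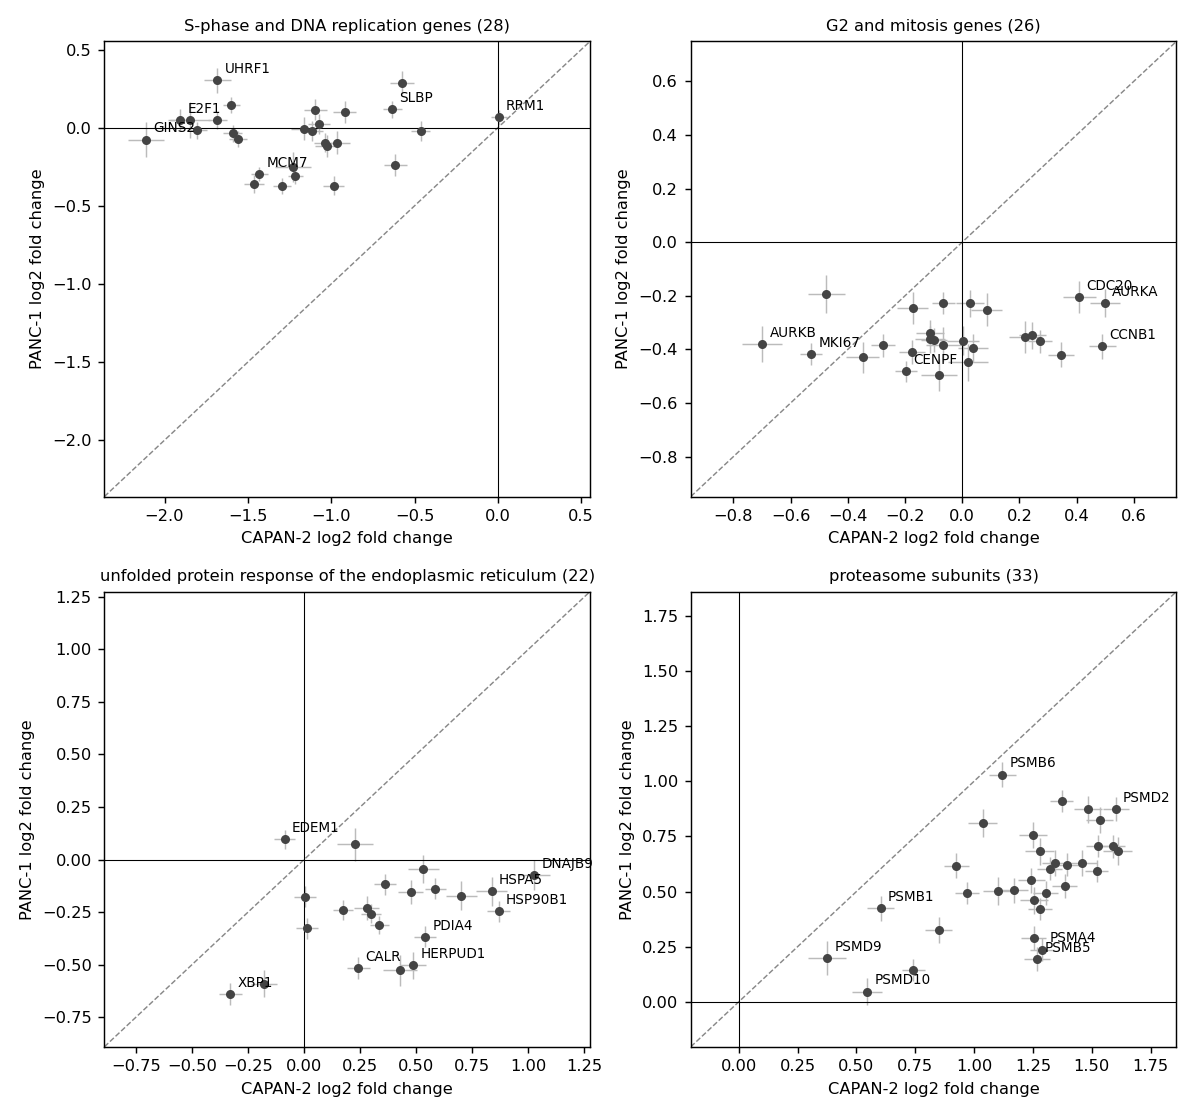
Log2 fold change in CAPAN-2 (horizontal axis) against PANC-1 (vertical axis) for the members of 4 gene lists, with SE bars, and the line of equal change (dashed). S-phase genes spread along the CAPAN-2 axis near 0 in PANC-1, G2 and mitosis genes lie below 0 in PANC-1 on both sides of 0 in CAPAN-2, most unfolded protein response genes lie in the lower right quadrant, and all 33 proteasome subunits drawn lie below the dashed line.

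Outside the lists, large opposite responses included those of the protease PLAU and the ectoenzyme NT5E. They and RAPGEF3, ETV4, GALNT6, RIN1, NTSR1, CYP24A1, OASL, ERO1B, LGR4 and LSAMP were picked for description after their values were seen, as the largest among genes at 5 CPM or more in each line. PLAU (ENSG00000122861), the urokinase that activates plasminogen, was at 646, 723 and 699 CPM in CAPAN-2 DMSO and 447, 444 and 424 CPM after carfilzomib, and at 248, 187 and 192 and then 655, 653 and 601 CPM in PANC-1. The lines started apart, moved towards each other and crossed, with a response difference of -2.26 ± 0.11 (edgeR adjusted p = 2.52e-10). NT5E (ENSG00000135318), or CD73, the enzyme that makes adenosine outside the cell, went from 752, 795 and 769 to 210.0, 216 and 209 CPM in CAPAN-2 and from 137, 102 and 105 to 162, 155 and 146 CPM in PANC-1, a difference of -2.30 ± 0.11. The same orientation held for LAT2, an adaptor protein (difference -2.55), ZNF488 (-2.08), RAPGEF3, a cAMP-activated exchange factor for RAP (-1.89), ETV4, an ETS factor downstream of ERK (-1.61), GALNT6, which starts O-glycans (-1.56), and RIN1, a RAS effector (-1.49). For each of these 6 genes the treatments did not overlap within either line. NTSR1, the neurotensin receptor, fell by 1.80 in CAPAN-2 and rose by 0.21 in PANC-1. CYP24A1, which degrades vitamin D, fell in CAPAN-2 (-1.97) and was at 0.02 in PANC-1. KIAA1755 was called lower in CAPAN-2 and higher in PANC-1, at under 1 CPM in the latter.

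The reverse orientation, higher in CAPAN-2 and lower in PANC-1, held for BST2, an interferon-induced surface protein that tethers virus particles. It was at 109.5, 121 and 126 CPM and then 247, 227 and 228 CPM in CAPAN-2, and at 6.32, 4.99 and 6.24 and 2.76, 3.15 and 2.74 CPM in PANC-1, a response difference of 1.99 ± 0.14. OASL, another interferon-induced gene, went from 11.2, 9.63 and 8.8 to 24.4, 23.7 and 24.2 CPM and from 43.4, 30.6 and 32.3 to 23.1, 24 and 23.4 CPM, a difference of 1.88. ERO1B, an ER oxidase that supports disulfide bond formation, had 0.73 and -0.54 (difference 1.27), and the ER calcium pump ATP2A3 had 0.78 and -0.71 (1.49). LGR4, a receptor for R-spondins, had a difference of 1.13, the ephrin receptor EPHB3 2.20, LSAMP, an adhesion molecule, 1.49, and the collagen gene COL1A1 1.20. KCNK3, a potassium channel, stayed under 1 CPM in CAPAN-2, with at most 0.0976 CPM in DMSO and 0.752, 0.672 and 0.732 CPM after carfilzomib, and went from 11, 12.3 and 12.5 to 5.68, 6.96 and 6.01 CPM in PANC-1. COL3A1 was called here as well, but at no more than 0.13 CPM in CAPAN-2.

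Immediate early genes had no single direction. Of 17, 8 rose and 4 fell in CAPAN-2 and 9 rose and 1 fell in PANC-1, and the response difference was positive for 4 and negative for 6. The 4 that fell in CAPAN-2 and the 4 positive differences were near the shares of all genes, 25.8% and 20.2%, while 26.2% of all genes rose in CAPAN-2 and 14.2% in PANC-1. MYC (ENSG00000136997) was at 204, 213 and 193 CPM in CAPAN-2 DMSO and 160.3, 166 and 180.1 CPM after carfilzomib, and at 69.9, 60.1 and 64.3 and then 109.9, 106 and 111 CPM in PANC-1. It fell in the line with the higher level and rose in the other, a difference of -1.02. DUSP5 and DUSP6, phosphatases that limit ERK signalling and are induced by it, fell in CAPAN-2 (-0.16 and -0.43) and rose in PANC-1 (0.92 and 0.25), with a difference of -1.08 for DUSP5. JUN went the other way in size: it rose from 13.3, 15.3 and 11.8 to 50.6, 40.5 and 42.7 CPM in CAPAN-2 and by 0.26 on the log2 scale in PANC-1, a difference of 1.48.

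Ribosome biogenesis genes, many of them known MYC targets, fell in CAPAN-2 for 12 of 22 and rose for 6, where 25.8% and 26.2% of all genes did, while in PANC-1 7 rose and 0 fell, where 14.2% and 13.2% did. The difference between lines was negative for 9 and positive for 2. RRS1 and WDR12, assembly factors of the large subunit, were called in opposite directions (-0.29 and 0.29, and -0.20 and 0.18), and the difference of RRS1 was -0.59. RRP12, a ribosome export factor, was an exception that rose in both, by 1.24 and 0.58 (difference 0.66).

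Antioxidant genes of the NRF2 pathway rose in both lines, with 15 positive and 2 negative response differences. In CAPAN-2, 22 of 27 rose and 1 fell, and in PANC-1, 18 rose and 1 fell, with 17 shared and medians of 0.74 and 0.44. HMOX1 (ENSG00000100292), heme oxygenase, was at 3.15, 3.77 and 2.73 CPM in CAPAN-2 DMSO and 53.5, 49.6 and 44.2 CPM after carfilzomib. In PANC-1 it was at 104, 97 and 96.1 CPM and then 205, 189 and 196 CPM. Every PANC-1 library, DMSO included, was above every CAPAN-2 library, yet the rise was 3.96 ± 0.096 in CAPAN-2 and 0.99 ± 0.066 in PANC-1, a difference of 2.97 ± 0.12 (edgeR adjusted p = 3.02e-11). NQO1, a quinone reductase, was the reverse: it rose by 0.24 in CAPAN-2 from 833, 812 and 726 CPM and by 0.67 in PANC-1 from 185, 185 and 177 CPM, a difference of -0.43. The ferritin genes FTL (2.14 and 1.56) and FTH1 (1.01 and 0.32), which store iron, rose in both.

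Of 24 autophagy genes, 18 rose and 1 fell in CAPAN-2, and 10 rose and 2 fell in PANC-1, with medians of 0.34 and 0.17. Of all genes, 26.2% rose in CAPAN-2 and 14.2% in PANC-1, so the background differed between the lines in the same direction, and the difference between these counts was not tested. GABARAPL1 (ENSG00000139112), which is attached to autophagosome membranes, went from 22.8, 23.1 and 24.5 to 166, 169.6 and 156 CPM in CAPAN-2. In PANC-1 it went from 26.6, 28.9 and 29.8 to 56.7, 49.5 and 53.3 CPM. Neither pair overlapped and the difference was 1.90 ± 0.086. CALCOCO2, a receptor for selective autophagy, rose by 1.66 in CAPAN-2 and fell by 0.16 in PANC-1. ATG7, which activates the conjugation, fell in CAPAN-2 (-0.32) and was at 0.05 in PANC-1, a difference of -0.37. Among 22 lysosomal genes, 13 rose and 2 fell in CAPAN-2 and 8 rose and 3 fell in PANC-1, against the same background. GLA, alpha-galactosidase A, rose by 2.51 and 1.13 (difference 1.37).

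Sterol and fatty acid synthesis genes fell in CAPAN-2 for 18 of 20 and in PANC-1 for 8 of 20, with 0 that rose in either line. Medians were -0.65 and -0.09, and the response difference was negative for 15 and positive for 0. Fatty acid synthase (FASN) fell by 1.35 and 0.22, the squalene epoxidase SQLE by 1.07 and 0.24, and INSIG1, a feedback regulator of the pathway, by 1.03 and 0.28. The transcription factors SREBF1 (-0.74 and -0.68) and SREBF2 (-0.61 and -0.49) fell in both with no called difference.

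Of 13 interferon and antigen presentation genes with a single row, 8 rose and 2 fell in CAPAN-2, where 26.2% and 25.8% of all genes did, with a median of 0.76. In PANC-1, 2 rose and 2 fell, near the shares of all genes (14.2% and 13.2%), with a median of 0.07. The response difference was positive for 9 and negative for 1, against 20.2% and 17.9%. IFI44 went from 16.7, 13.4 and 16.5 to 98.2, 100 and 98.5 CPM in CAPAN-2 and from 1.71, 1.41 and 1.46 to 2.44, 3.09 and 3.04 CPM in PANC-1, a difference of 1.75 ± 0.18. MX1, an antiviral GTPase, rose by 1.65 in CAPAN-2 and was at 0.17 in PANC-1. PSMB10, an immunoproteasome subunit, did not go with the constitutive subunits: it fell in CAPAN-2 (-0.53) and was at 0.04 in PANC-1, a difference of -0.57.

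Inflammatory, p53 and apoptosis genes were mixed. CXCL8, the neutrophil chemokine interleukin 8, went from 15.3, 18 and 13.1 to 51, 48.8 and 48.5 CPM in CAPAN-2 and from 0.663, 0.493 and 0.671 to 0.996, 1.02 and 0.953 CPM in PANC-1, a difference of 0.99. The CXCL8 difference was not called in a fit of all 48 libraries (edgeR adjusted p = 0.0535). LIF, a cytokine of the interleukin 6 family, was called in opposite directions (-0.66 and 0.31, difference -0.97), and so was TNFAIP2 (-0.55 and 0.35). MDM2, which directs p53 to the proteasome, rose from 102, 96.4 and 90.8 to 166, 164 and 167 CPM in CAPAN-2, while its PANC-1 groups overlapped, and the difference was 0.82. CDKN1A, the cyclin kinase inhibitor p21, was at 25.8, 33.1 and 25.3 CPM and 39.5, 35.4 and 40.1 CPM in CAPAN-2 and at 15.8, 17.9 and 19.2 and 19.6, 17.6 and 18.8 CPM in PANC-1, and its difference of 0.38 (edgeR adjusted p = 0.0375) was not called without any 1 of CAPAN-2 DMSO 1 or 3, CAPAN-2 carfilzomib 1 or 3, PANC-1 DMSO 2 or 3, or PANC-1 carfilzomib 2 or 3 (0.30 to 0.38). AEN, an exonuclease induced by p53, rose in PANC-1 (0.50, difference -0.62). PMAIP1, or NOXA, had a difference of 0.55.

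Metabolic and line-identity genes followed no common direction. HK2, a hexokinase, fell in CAPAN-2 (-0.50) and rose in PANC-1 (0.74), a difference of -1.24, and NDRG1, a hypoxia-induced gene, rose in both with a difference of 0.76. MTF1, the zinc-sensing transcription factor, differed by 0.52, while the metallothionein MT2A, which binds zinc, fell in CAPAN-2 (-0.32) and rose in PANC-1 (0.32). Another metallothionein, MT1A, was under 0.11 CPM in CAPAN-2 and went from 5.34, 4.63 and 5.46 to 11.1, 10.1 and 9.44 CPM in PANC-1. KRT80 was called in opposite directions (-0.21 and 0.77, difference -0.99), as were KRT8 (-0.43 and 0.14) and KRT18 (-0.56 and 0.22), keratins of simple epithelia. Of the others of that kind, KRT19 rose in CAPAN-2 (0.32) and was at 0.07 in PANC-1, and KRT7 fell in CAPAN-2 (-0.16) and was at 0.02 in PANC-1. P-cadherin (CDH3) and E-cadherin (CDH1) fell in both lines and more in PANC-1, by 0.29 and 1.08 and by 0.39 and 1.02, and the CDH3 difference was 0.79.

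The largest response differences of all belonged mostly to genes near 0 in one of the lines. SMO (ENSG00000128602), the signal transducer of the Hedgehog pathway, was at 0.104, 0.163 and 0 CPM in CAPAN-2 DMSO and 11.1, 11.3 and 13.1 CPM after carfilzomib, and at 8, 8.28 and 7.76 and 10.7, 10.3 and 10.1 CPM in PANC-1. After carfilzomib every CAPAN-2 library was above every PANC-1 library, and the difference was 6.79 ± 0.36 (edgeR adjusted p = 4.1e-10). With CAPAN-2 DMSO near 0, the size of this difference depends on the prior count that edgeR adds. The tetraspanin CD81 went from 0.494, 0.488 and 0.633 to 8.69, 8.5 and 9.07 CPM in CAPAN-2 and stayed between 267 and 320 CPM in PANC-1 (difference 4.13). FGF19, an endocrine growth factor, went from 420.5, 379 and 451 to 91.4, 109 and 106 CPM in CAPAN-2 and was at most 0.298 CPM in PANC-1. Positive calls in which CAPAN-2 stayed under 0.4 CPM were those of GPIHBP1, COL21A1 and CA8. Negative ones were those of BCL2A1, MEG3, PCSK1N and SOBP, at no more than 0.175 CPM in CAPAN-2. TRIM29, FGF9, SLC26A9, SNAI2 and TMEM168 had no library above 0.129 CPM in PANC-1, so no fold is given for any of these. All but GPIHBP1, COL21A1 and SLC26A9 lost the call without at least 1 library. CA8 had counts in 1 CAPAN-2 library, carfilzomib replicate 1 (6 counts), and without it the edgeR adjusted p was 1. EIF3C and EIF3CL, near-identical copies, were called too, but single libraries stood apart from their group. EIF3C was at 83.4, 7.12 and 8.3 CPM in CAPAN-2 carfilzomib and EIF3CL at 25.2, 24.4 and 1.58 CPM in PANC-1 DMSO, so their calls are uncertain.

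Among genes at 5 CPM or more in each line, the largest positive differences after SMO were those of NRIP3 and HSPA1A+HSPA1B. This ranking was added after the values were seen, and NRIP3, IL6R and B4GALNT1, among others, were named by it. NRIP3 (ENSG00000175352) went from 2.13, 2.31 and 2.18 to 67.7, 65.6 and 63.8 CPM in CAPAN-2 and from 64.9, 61.2 and 62.5 to 139, 138 and 149 CPM in PANC-1, a difference of 3.72 ± 0.087. The CAPAN-2 levels after carfilzomib overlapped the PANC-1 levels in DMSO. IL6R, the interleukin 6 receptor, went from 2.91, 3.42 and 3.85 to 32.3, 30.3 and 28.6 CPM and from 15.3, 15.1 and 15.3 to 18.6, 19.5 and 21.2 CPM (difference 2.78). SLC16A14, a member of the monocarboxylate transporter family, differed by 2.87. B4GALNT1, the synthase of the gangliosides GM2 and GD2, rose from 21.3, 24.8 and 23.4 to 161, 160.2 and 163 CPM in CAPAN-2 and by 0.38 on the log2 scale in PANC-1 (difference 2.42).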

How the data were processed

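RNA of CAPAN-2 and PANC-1 after carfilzomib or DMSO was read from the authors' deposited matrix of raw read counts, 33892 rows by 48 libraries. Per the labels' protocols, libraries were made with a stranded total RNA kit. The submitters' processing notes name bcl2fastq 2.19, FastQC, Trimmomatic, HISAT2, DESeq2 and hg38. The counting program, annotation and use of strand are not given in the sources used here, so antisense and overlapping genes are uncertain. Rows that share an Ensembl identifier (4803 rows of 1948 identifiers) are uncertain and were left out of list summaries, and the 8 rows of HSPA1A and HSPA1B were summed.

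The 12 libraries were fitted together with edgeR 4.0.16 in R 4.3.3 (4 group means, TMM, filterByExpr, quasi-likelihood F tests, Benjamini-Hochberg over 18455 genes, threshold 0.05). DESeq2 1.42.0 served as an alternative. The method was tested on simulated data. No pair of libraries was a repeat deposit: within groups, chi-square over its degrees of freedom was at least 3.47. CAPAN-2 DMSO replicate 3 stood apart from replicates 1 and 2 of its group, at 16.7 and 17.2, while every other pair was at 7.31 or less. Same-numbered replicates did not deviate together, so numbers were not used as pairs. Totals set counting error only, since no molecular identifiers are known.

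Named genes were, among genes at 5 CPM or more in a group, the 8 largest response differences per sign, the 6 leading opposite and shared genes per direction, the extreme called members of each of 25 lists, and 14 fixed stress genes. Leading response differences and opposite genes among those at 5 CPM or more in each line were added after their values were seen. The members, lists and rules were chosen with earlier results of these data known. A few genes that these rules or lists hold are not reported here. Promoters (250 bases before the RefSeq gene start, GRCh38.p14) were matched by symbol.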

Additional observations from a re-analysis of the deposited data

Results flagged for a closer look

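Results are listed here because the difference between CAPAN-2 and PANC-1 was itself tested, as the interaction of line and treatment, and was called by edgeR at an adjusted p under 0.05. With 3 libraries per group, no library was tested as an outlier. The counts were 3737 genes with a positive and 3307 with a negative response difference, and 793 genes called in opposite directions. Values below are log2 response differences, CAPAN-2 minus PANC-1.

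Chaperone genes gave 3.42 for HSPA1A+HSPA1B, 3.56 for HSPA6, 1.08 for BAG3, 0.28 for DNAJB1, 0.90 for HSPB8, -0.42 for FKBP4 and -0.34 for HSPB1. Proteasome and ubiquitin genes gave 1.07 for PSMB5, 0.81 for USP14, -0.59 for PSMG3, -0.57 for PSMB10 and 1.87 for ZFAND2A. Genes of the endoplasmic reticulum and the integrated stress response gave 0.99 for HSPA5, 1.11 for HSP90B1, -0.18 for EDEM1, 1.27 for ERO1B, 1.49 for ATP2A3, 1.33 for ATF3, 0.57 for DDIT3, -0.41 for SHMT2 and 0.69 for WARS1. Cell cycle genes gave -2.04 for GINS2, -1.99 for UHRF1, -1.68 for H2BC14, 0.88 for CCNB1, -0.32 for AURKB and 0.38 for CDKN1A. Autophagy, lysosome and antioxidant genes gave 1.90 for GABARAPL1, -0.37 for ATG7, 1.37 for GLA, 2.97 for HMOX1 and -0.43 for NQO1. Interferon, cytokine and p53-related genes gave 1.75 for IFI44, 1.99 for BST2, 1.88 for OASL, 0.99 for CXCL8, -0.97 for LIF, 2.78 for IL6R, 0.82 for MDM2, -0.62 for AEN and 0.55 for PMAIP1. Immediate early and ribosome biogenesis genes gave -1.02 for MYC, -1.08 for DUSP5, 1.48 for JUN, -0.59 for RRS1 and 0.66 for RRP12. Of the other genes, positive values were 2.42 for B4GALNT1, 4.13 for CD81, 0.79 for CDH3, 1.20 for COL1A1, 2.20 for EPHB3, 1.13 for LGR4, 1.49 for LSAMP, 0.52 for MTF1, 0.76 for NDRG1, 3.72 for NRIP3, 2.87 for SLC16A14 and 6.79 for SMO. Negative values were -1.61 for ETV4, -1.56 for GALNT6, -1.24 for HK2, -0.99 for KRT80, -2.55 for LAT2, -2.30 for NT5E, -2.26 for PLAU, -1.89 for RAPGEF3, -1.49 for RIN1 and -2.08 for ZNF488.

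All of these are values of 12 libraries from a single experiment, and the concentration of carfilzomib, set per line, cannot be told apart from the line.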

How the results depend on the processing

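The counts of called genes stayed within 1.5 times their reported values under DESeq2's size factors, library totals, no expression filter, a minimum mean of 50 counts, the DESeq2 test, thinning to the lowest total, and summing or leaving out rows that share an identifier, except as follows. Tested against a 1.5-fold difference, 503 genes had a positive and 682 a negative response difference, 1109 rose and 1078 fell in CAPAN-2, 156 rose and 48 fell in PANC-1, 88 rose and 25 fell in both, and 1 and 8 were opposite with CAPAN-2 higher and lower. In a fit of all 48 libraries, 226 and 261 genes were opposite, and the cause was not tested. Without each library in turn, positive response differences numbered 3268 to 3723 and negative ones 2939 to 3442, and opposite genes with CAPAN-2 higher 249 to 456 and with CAPAN-2 lower 302 to 500. The counts of 456 and 500 were those without CAPAN-2 DMSO replicate 3, where 3003 genes rose and 2809 fell in PANC-1. Fits of each line on its own 6 libraries, added after seeing the data, called 4357 genes higher and 4529 lower in CAPAN-2. In PANC-1 they called 3427 higher and 3047 lower. The gap in called genes between the lines was thus narrower than in the fit of the 12 libraries together.

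With the replicate block, 3461 genes had a positive and 3016 a negative response difference, 4666 rose and 4531 fell in CAPAN-2, 2401 rose and 2192 fell in PANC-1, 1386 rose and 1145 fell in both, and 312 and 356 were opposite. Same-numbered libraries had correlations of deviations of -0.033, 0.115 and -0.167 in CAPAN-2 and 0.021, 0.078 and 0.169 in PANC-1, so the numbers name the libraries only.

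The median log2 change of all genes lay between -0.04 and -0.01 in CAPAN-2 under the scalings tried. Over all alternatives, 115 values of named genes lost the call. Another 2269 kept the call and its direction, or were of genes not called in the main fit, where a change of sign was not counted. The fitted response difference of CA8 lay between -0.0189 (without CAPAN-2 carfilzomib replicate 1) and 4.72 over the fits that left out a library. CA8 was at 0 in all CAPAN-2 DMSO libraries, so these fitted values depend on the prior count and are no fold. Depth limits genes near 0 in a line. No fold is given for many of those named, and the sizes printed for SMO and DGKG depend on the prior count.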

Other observations

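The lists that separated the pancreatic lines also varied over the other 6 lines of the study, each with its own DMSO libraries, in a fit of all 48 libraries. These are values without a test between lines. The median log2 change of S-phase genes was -1.19 in CAPAN-2 and -0.02 in PANC-1, and between -0.71 (H-929) and -0.27 (DLD-1) in the others, so the pancreatic lines held both ends. For histone genes it was -1.25 in CAPAN-2 and -0.17 in PANC-1, and between -1.55 (H-1299) and -0.80 (RKO) in the others. Proteasome subunits had the highest median in CAPAN-2 (1.28), with 0.60 in PANC-1 and -0.03 (RKO) to 0.86 (RPMI) in the others. G2 and mitosis genes were between -0.78 (RKO) and 0.05 (H-1299), with -0.06 in CAPAN-2 and -0.37 in PANC-1. The unfolded protein response list was at 0.35 in CAPAN-2 and -0.23 in PANC-1, between -0.84 (H-929) and 0.39 (H-1299).

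The sequence bound by NRF2 and NFE2L1 with small MAF proteins, searched for as TGACNNNGC, matches were found in 5 of 30 proteasome promoters, 4 of 21 NRF2 list promoters and 3013 of all 27305 in the 250 bases before the gene start, on both strands. A match is a description of letters.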
